A study of Homo sapiens with 12 samples.

Results

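Subtelomeric BG4 peaks are the peaks that lay within 2 Mb of a chromosome end in HEK293 cells, an established human embryonic kidney line. BG4 is an antibody fragment that binds G-quadruplexes, and it was used here for chromatin immunoprecipitation followed by sequencing. The members were selected on the measured peak positions and on nothing else, on the 22 autosomes of hg38. A peak counted when it lay wholly within 2 Mb of either end, and the short arms of chromosomes 13, 14, 15, 21 and 22 were left out, which leaves 39 ends and 78 Mb. The BioRep1 list held 613 such peaks of 7931 in all, the BioRep2 list 847 of 11665, and the BioRep3 list 953 of 13049. Together these are 2413 of 32645 peaks. Where peaks of all 3 lists overlapped, they were merged into consensus regions, of which 483 of 6081 lay at the ends. They are set against the rest of the same chromosomes, 2716.1 Mb with 7120, 10458 and 11711 peaks in the BioRep1, BioRep2 and BioRep3 lists and 5437 consensus regions. The study has a single condition. It holds 3 biological replicates (BioRep1, BioRep2 and BioRep3) of formaldehyde-fixed, sonicated HEK293 chromatin, each represented by 3 technical ChIP libraries and by 1 input that skipped BG4. The inputs were not analysed here, so no level is set against a background without antibody. Reads were also counted in windows of 400 bp around 58381 annotated transcription start sites (TSSs), 372030 to 846114 reads per library, of which 5.97 to 6.21% fell in windows at the ends.

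A G-quadruplex forms when runs of guanines on a strand pair into stacked tetrads, held by loops of other bases between the runs. Telomeres, the repeated tips of human chromosomes, carry such runs, and so do many GC-rich promoters. The subtelomere is the zone behind the telomere. It starts with blocks of sequence duplicated between chromosomes, which carry gene families such as the OR4F olfactory receptors and the DUX4 repeats, and passes into GC-rich, gene-dense sequence on many arms.

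The windows of several subtelomeric promoters carry the results below, and 8 upstream sequences show what they hold. Each gives the 250 bases before the RefSeq start (GRCh38.p14), 5′ to 3′ on the strand of the gene. Capitals mark matches to the G-quadruplex motif, which is 4 runs of GGG or longer separated by loops of 1 to 7 bases of any kind, searched on both strands. A match on the other strand appears as runs of CCC, and matches on 1 strand do not overlap. The motif occurred in 8778 of all 35116 RefSeq promoters of 300 bases (250 before and 50 after the start), or 25.0%. A match describes the letters and says nothing of folding. The first 4 promoters had a peak in all 3 lists and a motif. MICALL2 encodes an adaptor of cell junctions, LSS lanosterol synthase of the sterol pathway, CRAMP1 a nuclear protein and DAZAP1 an RNA-binding protein.
MICALL2, chr7:1459471-1459720, minus strand: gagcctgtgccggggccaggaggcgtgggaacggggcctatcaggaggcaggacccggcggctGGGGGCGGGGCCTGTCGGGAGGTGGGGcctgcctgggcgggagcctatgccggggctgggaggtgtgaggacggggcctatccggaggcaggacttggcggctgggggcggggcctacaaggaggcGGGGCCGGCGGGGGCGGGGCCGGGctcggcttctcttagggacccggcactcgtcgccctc
LSS, chr21:46228775-46229024, minus strand: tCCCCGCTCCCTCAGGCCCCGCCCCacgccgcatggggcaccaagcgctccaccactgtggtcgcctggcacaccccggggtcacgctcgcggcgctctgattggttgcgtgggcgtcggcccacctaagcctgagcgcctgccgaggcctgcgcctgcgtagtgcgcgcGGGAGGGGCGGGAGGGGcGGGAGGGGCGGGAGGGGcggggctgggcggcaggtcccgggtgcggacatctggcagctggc
CRAMP1, chr16:1612110-1612359, plus strand: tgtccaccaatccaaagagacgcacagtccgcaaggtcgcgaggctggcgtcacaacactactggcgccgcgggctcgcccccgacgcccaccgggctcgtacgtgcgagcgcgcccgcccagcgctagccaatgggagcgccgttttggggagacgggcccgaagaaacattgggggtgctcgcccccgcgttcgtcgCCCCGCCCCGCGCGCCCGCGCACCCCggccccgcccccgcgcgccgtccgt
DAZAP1, chr19:1407336-1407585, plus strand: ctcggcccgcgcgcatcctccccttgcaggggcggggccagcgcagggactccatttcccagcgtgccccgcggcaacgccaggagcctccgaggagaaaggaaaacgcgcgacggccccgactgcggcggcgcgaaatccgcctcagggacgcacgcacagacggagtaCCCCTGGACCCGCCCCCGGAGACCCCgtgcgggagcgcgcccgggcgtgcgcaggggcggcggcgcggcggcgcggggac
P4HB, which encodes a protein disulfide isomerase, and RAB40B, which encodes a small GTPase, also had a peak in all 3 lists, but the motif is not in their windows of 300 bases. For all 6 of these promoters, consensus regions covered 250 of the 250 bases printed.
P4HB, chr17:81860536-81860785, minus strand: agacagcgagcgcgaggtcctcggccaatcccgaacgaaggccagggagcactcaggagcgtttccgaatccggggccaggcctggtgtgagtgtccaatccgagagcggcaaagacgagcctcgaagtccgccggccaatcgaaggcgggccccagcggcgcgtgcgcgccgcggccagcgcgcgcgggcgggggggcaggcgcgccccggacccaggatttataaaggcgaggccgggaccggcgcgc
RAB40B, chr17:82698699-82698948, minus strand: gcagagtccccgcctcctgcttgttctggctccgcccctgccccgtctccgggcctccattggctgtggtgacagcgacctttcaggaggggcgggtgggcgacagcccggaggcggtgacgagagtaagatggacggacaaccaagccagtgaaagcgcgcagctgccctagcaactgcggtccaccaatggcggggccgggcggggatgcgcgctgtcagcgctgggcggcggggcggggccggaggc
CNN2, which encodes a calponin, and RTEL1, which encodes a helicase that unwinds telomere loops and G-quadruplexes, have a motif but no peak in any list.
CNN2, chr19:1026358-1026607, plus strand: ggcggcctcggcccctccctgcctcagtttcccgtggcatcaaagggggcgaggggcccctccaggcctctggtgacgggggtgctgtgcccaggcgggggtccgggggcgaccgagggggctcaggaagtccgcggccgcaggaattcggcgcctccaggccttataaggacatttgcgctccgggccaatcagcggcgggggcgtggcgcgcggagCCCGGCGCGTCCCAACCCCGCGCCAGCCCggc
RTEL1, chr20:63657560-63657809, plus strand: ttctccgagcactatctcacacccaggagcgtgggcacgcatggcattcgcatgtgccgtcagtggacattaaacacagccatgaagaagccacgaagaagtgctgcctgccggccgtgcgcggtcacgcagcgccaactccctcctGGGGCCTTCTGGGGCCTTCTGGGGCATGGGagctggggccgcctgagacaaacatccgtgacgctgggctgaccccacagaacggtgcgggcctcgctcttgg

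Peaks were denser at the chromosome ends than in the rest. The ends held 7.86, 10.9 and 12.2 peaks per Mb in the BioRep1, BioRep2 and BioRep3 lists, and the rest held 2.62, 3.85 and 4.31. The ratio was 3.00, 2.82 and 2.83, a mean of 2.88 ± 0.0990 (SD, n = 3 lists). The lengths include assembly gaps. Peaks covered 1396, 2152 and 2669 bp per Mb at the ends, against 412, 715 and 889 bp per Mb in the rest. The ends were chosen because peaks had been seen to be dense there, so densities are given as descriptions, with no test. Of 22 chromosomes, 19 had more consensus regions per Mb at their ends than in their rest. Chromosome 8 had the largest ratio, with 10.5 regions per Mb at the ends and 0.942 in the rest. Chromosomes 3, 6 and 13 went the other way, with 1.00, 1.25 and 0.50 regions per Mb at the ends, against 1.51, 1.68 and 1.00 in the rest.

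TSSs were also denser at the ends. The ends held 3098 windows, or 39.7 per Mb, against 52180 windows or 19.2 per Mb in the rest, and this was so on 22 of 22 chromosomes. Per TSS window, the ends held 0.198, 0.273 and 0.308 peaks in the BioRep1, BioRep2 and BioRep3 lists, and the rest held 0.136, 0.200 and 0.224. The ratio per window was thus 1.45, 1.36 and 1.37, with a mean of 1.39 ± 0.0479 (SD, n = 3 lists), well under the ratio per Mb. On 17 of 22 chromosomes the ends had the larger share of windows with a consensus peak. With all peaks kept but length counted only over 100 kb bins that hold a TSS window, the ratio per Mb was 2.23.

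**Figure D1:**
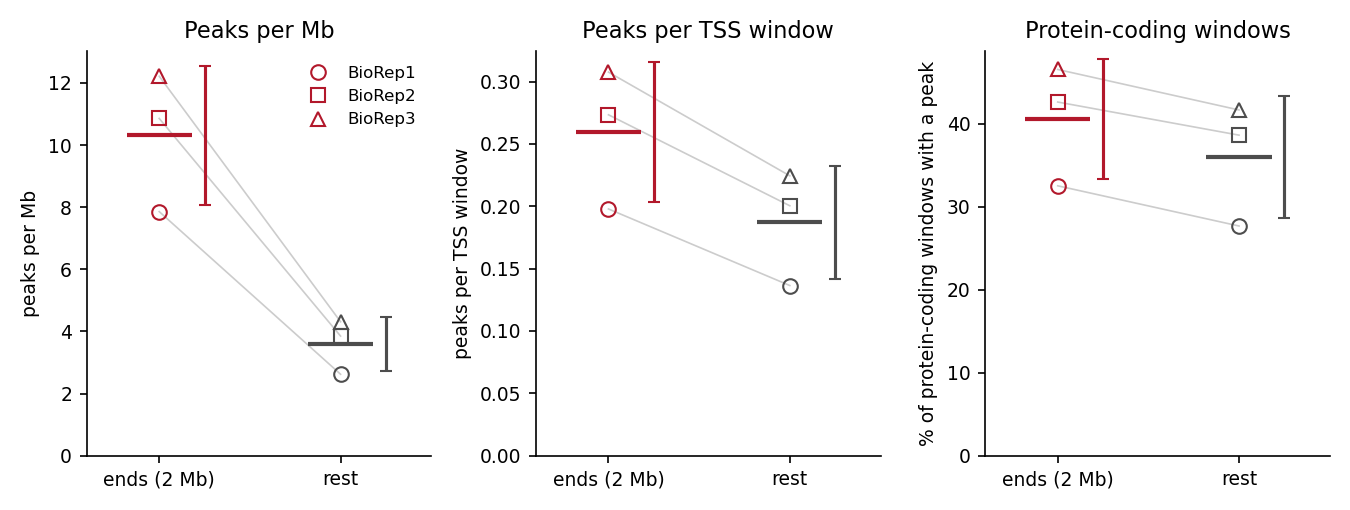
Peaks per Mb (left), peaks per TSS window (middle) and the percentage of protein-coding windows with a peak (right) at the ends and in the rest, 1 symbol per peak list, with the mean as a bar and the SD of 3 lists beside it; grey lines join the values of 1 list. In each of the 3 lists the ends lie above the rest, by a mean ratio of 2.88 per Mb and 1.39 per window.

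At the ends, 13.6, 17.9 and 19.6% of windows had a peak in the BioRep1, BioRep2 and BioRep3 lists, against 9.57, 13.6 and 14.8% in the rest and 9.51, 13.5 and 14.7% of all windows. A peak in every list, called a consensus peak, was present in 393 of 3098 windows at the ends (12.7%, 95% Wilson interval 11.6 to 13.9%) and 4699 of 52180 in the rest (9.01%, 8.76 to 9.25%), and for 8.94% of all windows. Windows named for protein-coding genes carried most of them. Of these, 272 of 892 had a consensus peak at the ends (30.5%, 27.6 to 33.6%), against 3312 of 12662 in the rest (26.2%, 25.4 to 26.9%) and 25.8% of all such windows. By list, 32.5, 42.6 and 46.5% of protein-coding windows at the ends had a peak in the BioRep1, BioRep2 and BioRep3 lists, against 27.7, 38.6 and 41.6% in the rest; over all protein-coding windows the shares were 27.3, 38.1 and 41.0%. The difference was 4.57 ± 0.505 percentage points (SD, n = 3 lists). It was 1.68 points without the 3 ends that hold the most regions (19p, 8q and 17q). These were picked for that number and left out on 1 side alone, a choice that favours a smaller difference. Within chromosomes, the share of protein-coding windows was larger at the ends on 14 of 22. Windows of long noncoding RNAs had a consensus peak in 44 of 318 cases at the ends (13.8%, 10.5 to 18.1%) and 451 of 4865 in the rest (9.27%, 8.49 to 10.1%). Those of pseudogenes had one in 4 of 365 (1.10%, 0.427 to 2.78%) and 66 of 12125 (0.544%, 0.428 to 0.692%). The intervals cover counting error only.

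Density did not peak at the tip. The classes nearest the end include telomere gaps and near-identical copies of duplicated families, whose reads cannot be assigned to 1 of them. Low values there are therefore uncertain, and their cause was not tested. Within the last 0.1 Mb the ends held 3.08 consensus regions per Mb, and between 0.1 and 0.25 Mb they held 3.93. The value was 6.36 per Mb between 0.25 and 0.5 Mb and 7.64 between 0.5 and 1 Mb, the highest of the distance classes. It was 6.10 and 6.05 in the next classes of 0.5 Mb, 4.51 between 2 and 2.5 Mb, and 2.47 between 10 and 20 Mb. Windows per Mb followed another course. They were already at 37.9 in the last 0.1 Mb and highest, at 49.2, between 0.1 and 0.25 Mb. The share of windows with a consensus peak was therefore 5.41% in the last 0.1 Mb (8 of 148 windows) and 7.64% in the next class (22 of 288), against 14.6% between 0.5 and 1 Mb (121 of 826). Among protein-coding windows the share was 21.7% (5 of 23; 9.66 to 41.9%) in the last 0.1 Mb and 33.2% (87 of 262; 27.8 to 39.1%) between 0.5 and 1 Mb, with intervals that overlap. The BioRep1 and BioRep2 peaks nearest to the 2 Mb limit on the inside lay 5454 and 5453 bp within it on chromosome 9, where the consensus region spans chr9:136400171-136400411. The BioRep3 peak nearest inside lay 2077 bp within it on chromosome 14. Nearest outside was the same place on chromosome 16 in all 3 lists, 4015 to 4032 bp beyond the limit, with the consensus region at chr16:2004016-2004171.

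**Figure D2:**
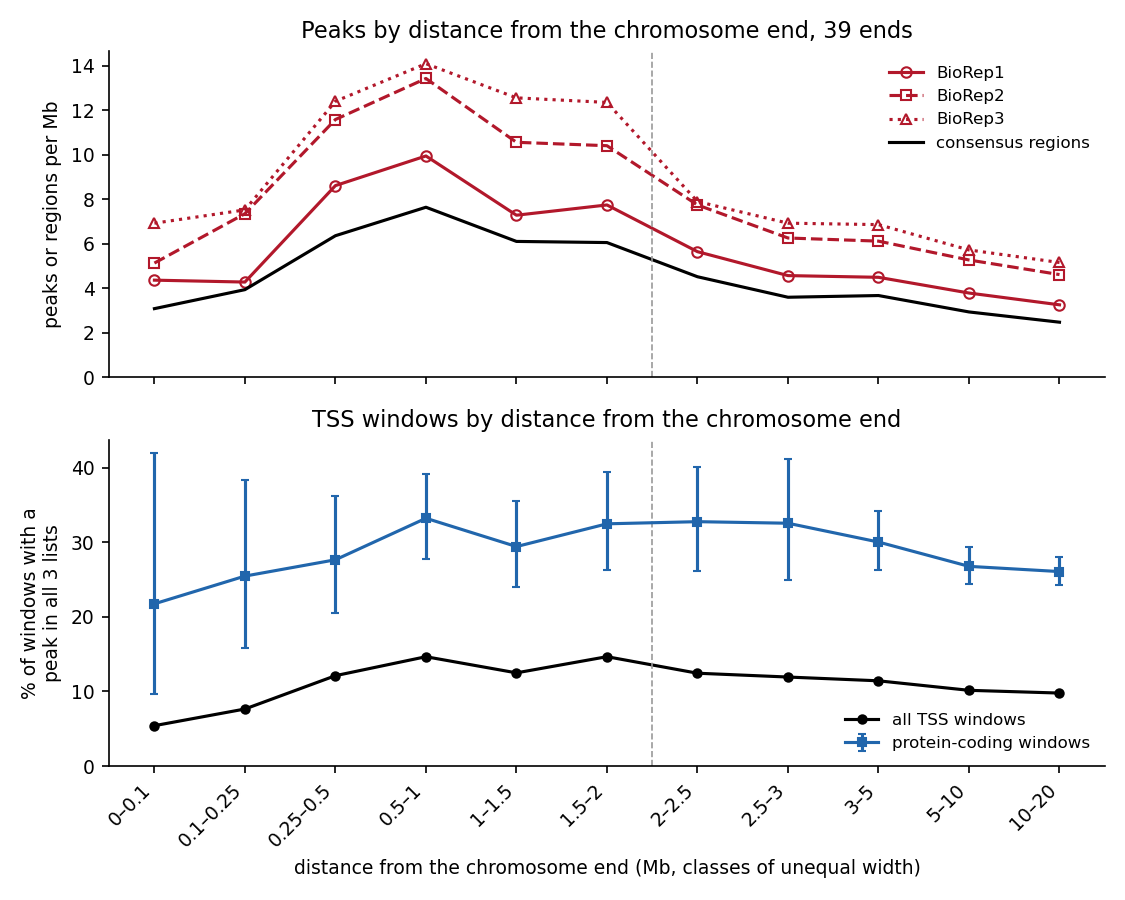
Peaks of each list and consensus regions per Mb (top) and the percentage of TSS windows with a peak in all 3 lists (bottom, with 95% Wilson intervals for protein-coding windows) by distance from the chromosome end in Mb, over 39 ends; the dashed line marks 2 Mb. Consensus regions were highest at 7.64 per Mb between 0.5 and 1 Mb and lower, at 3.08 per Mb, in the last 0.1 Mb.

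Single ends differed widely. The 19p end held 48 consensus regions, 8q 41, 17q 36, 16p 32, 9q 30 and 16q 22. These 6 ends held 209 of the 483 regions (43.3%) and 25.0% of the windows. The median end held 11 regions, 16 ends held 5 or fewer, and 3p, 4q and 9p held no peak in any list. The same 3 ends led each list: 19p had 54, 76 and 85 peaks in the BioRep1, BioRep2 and BioRep3 lists, 8q had 48, 69 and 78, and 17q had 47, 61 and 61.

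Ends with more windows tended to hold more regions. Over the 39 ends the number of consensus regions had a Pearson r of 0.627 and a Spearman rho of 0.762 with the number of windows, and an r of 0.770 with the number of protein-coding windows. These are descriptions over ends that share libraries and peak calling. The 14q end lay off this trend. It had 222 windows, the most of any end, but 5 regions, and 11 of its windows were protein-coding; it holds the immunoglobulin heavy chain locus, whose many gene segments each have an annotated start. The 1q end, which holds a cluster of olfactory receptor genes, had 108 windows, 51 of them protein-coding, and 2 regions. Read levels without peaks also differed between ends. The median level of windows with no peak in any list was 2.11 CPM (the reads in a window scaled to the total over all windows) at 4q, 4.19 at 9p and 5.35 at 3p, against 14.9 at 17q and 11.1 at 19p. The part of this level in the number of peaks was not tested.

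**Figure D3:**
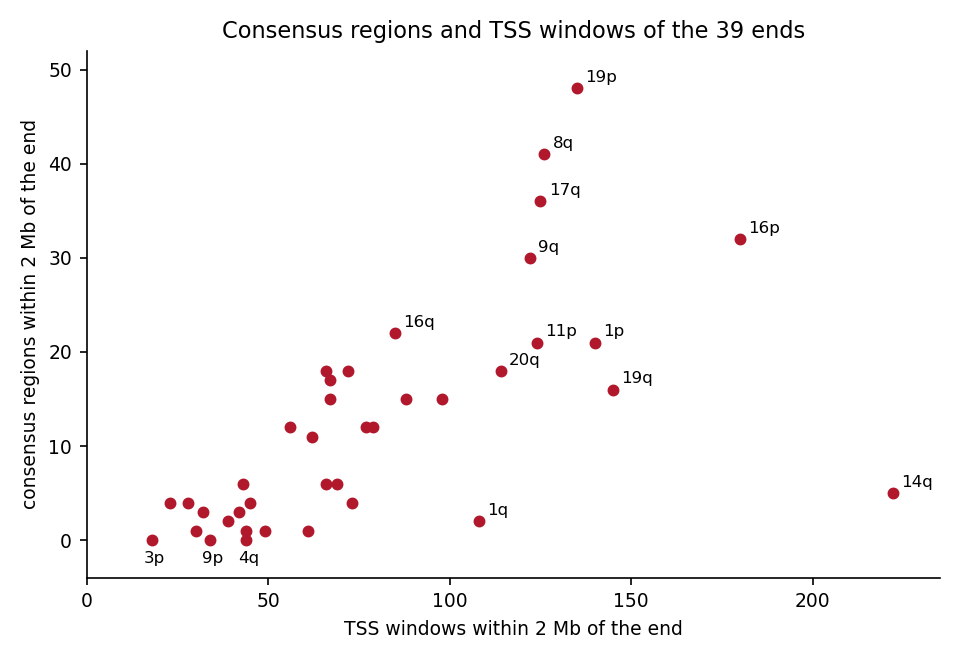
Consensus regions (vertical axis) against TSS windows (horizontal axis) within 2 Mb of each of the 39 ends, 1 point per end, with the ends of many regions, many windows or no region named. The 19p end leads with 48 regions on 135 windows, and 14q has 5 on 222.

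The share of peaks that recurred between the lists was larger at the ends in each list. A peak counts as shared where each of the other lists has a peak on at least 1 of its bases. Shared peaks made up 87.8, 58.4 and 51.7% of the subtelomeric peaks in the BioRep1, BioRep2 and BioRep3 lists, against 85.4, 53.7 and 46.9% in the rest. The difference was 3.99 ± 1.38 percentage points, with the same sign in 3 of 3 lists, and an exact two-sided sign-flip permutation test gave p = 0.25, the smallest that 3 lists allow. The 3 values are not independent, since each overlap counts in more than 1 list. The difference was 1.80 points without the BioRep1 list, where a peak needs to overlap the other remaining list, 2.30 without 19p, 8q and 17q, and 9.34 when 50% of both peaks had to overlap. Peaks found in no other list made up 3.59, 13.5 and 24.2% at the ends and 4.66, 14.9 and 26.6% in the rest. BioRep1 had the shortest list and the largest shared share in both places.

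Subtelomeric peaks had a longer median length in each list. Their median length was 140, 158 and 182 bp in the BioRep1, BioRep2 and BioRep3 lists, against 123, 149 and 169 bp in the rest. The difference of 13 ± 4 bp had the same sign in 3 of 3 lists (exact two-sided sign-flip permutation p = 0.25, the smallest possible), and was 6.83 bp without 19p, 8q and 17q. The share of peaks under 50 bp differed by -2.10 ± 0.240 percentage points (11.4, 7.67 and 7.03% at the ends, 13.3, 10.0 and 9.04% in the rest). Shared peaks were the longer ones in both places. Their median was 159.5, 252 and 292 bp at the ends and 143, 242 and 293 bp in the rest, so in BioRep3 the shared peaks were of nearly equal length. Peaks that were not shared had a median of 74, 78 and 96 bp at the ends and 61, 84 and 98 bp in the rest, shorter at the ends in BioRep2 and BioRep3. The merged consensus regions had a median of 327 bp at the ends and 324 bp in the rest.

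The 5 longest subtelomeric regions lay near promoters in 4 cases. The longest, chr9:137150321-137151429, spans 1109 bp inside GRIN1, which encodes an NMDA receptor subunit, 12485 bp from the nearest TSS. It is a cluster of short peaks in BioRep1 (3 peaks, 587 bp) and BioRep3 (4 peaks, 653 bp) and a single peak of 1109 bp in BioRep2. The next, chr11:694861-695946, spans 1086 bp in DEAF1, which encodes a transcription factor, with its middle 25 bp before a TSS. That window had 120 ± 8.26 CPM. The third, of 999 bp, covers the start of the noncoding gene RENO1 at 17q, the fourth, of 897 bp, has its middle 330 bp before that of PCBP3 at 21q, and the fifth, of 886 bp, has its middle 170 bp after that of RNH1, which encodes a ribonuclease inhibitor, at 11p. Both of these also span the start.

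Most regions lay at TSSs in both places. At the ends 379 of 483 consensus regions were within 1 kb of a TSS (78.5%, 74.6 to 81.9%), 70 lay farther out in a RefSeq gene body (14.5%, 11.6 to 17.9%) and 34 between genes (7.04%, 5.08 to 9.68%). In the rest the shares were 81.8, 12.2 and 6.0%. Around protein-coding TSSs, 198 of 269 regions had their middle upstream of the TSS at the ends (73.6%, 68.0 to 78.5%), against 2222 of 3303 in the rest (67.3%, 65.7 to 68.9%). The median position was 52 bp upstream at the ends and 40 bp upstream in the rest. Over all peaks of a list, 21.0, 26.0 and 27.5% lay over 1 kb from a TSS at the ends in BioRep1, BioRep2 and BioRep3, against 18.8, 22 and 24.5% in the rest, a difference of 3.05 ± 0.861 points (exact two-sided sign-flip permutation p = 0.25, the smallest possible). It was 1.28 points with ends of 1 Mb. Beyond 5 kb the difference turned to -0.755 points; the higher number of windows per Mb at the ends goes with this, and its part was not tested. The median gap between neighbouring regions was 42.7 kb at the ends and 126.9 kb in the rest. This follows from the density per Mb and is no further trait of the ends.

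A few regions lay far from any TSS. The farthest at the ends were a pair at 7p, chr7:1369150-1369291 and chr7:1412966-1413157, whose nearest TSS, 90282 and 46441 bp away, is that of MICALL2. Both are present as 1 peak in each list, of 86, 142 and 111 bp and of 158, 64 and 165 bp in BioRep1, BioRep2 and BioRep3. Next came regions inside RAD52, which encodes a recombination protein (12p, 40242 bp away), PNPLA7, a lipase gene (9q, 33361 bp away), and THAP4 (2q, 25431 bp away). Nearest to a telomere were regions at the 19q end. A pair lay 44.0 and 44.4 kb from the end, where MZF1, which encodes a zinc finger protein, and its antisense gene MZF1-AS1 overlap, and another lay 57.9 kb from it in MZF1-AS1. The region in PGBD2 lay 49.6 kb from the 1q end, and that at POLR3K, which encodes a subunit of RNA polymerase III, lay 53.5 kb from the 16p end.

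Read levels in the windows come from the same reads as the peaks, so they are not independent of the calls. Windows with a consensus peak had a median of 65.0 ± 2.32 CPM at the ends and 63.9 ± 3.09 CPM in the rest (SD, n = 3 biological replicates). On the scale of log2(CPM + 1) the mean difference was 0.057, 0.0031 and 0.045 in BioRep1, BioRep2 and BioRep3, or 0.035 ± 0.028 (exact two-sided sign-flip permutation p = 0.25, the smallest possible). The peak calls had chosen these windows. Windows with no peak in any list had a median of 8.56 ± 0.432 CPM at the ends and 8.08 ± 0.470 CPM in the rest, yet their mean on the log2 scale was lower at the ends, by -0.065 ± 0.027 in 3 of 3 replicates (p = 0.25 in the same exact test). Over all gene classes, empty windows were more frequent at the ends. No library had a read in 142 of 2453 peak-free windows at the ends (5.79%), against 1225 of 43854 in the rest (2.79%). Without them the difference was 0.029, and with ends of 1 Mb it was -0.33. Protein-coding windows went the other way. Of those without a peak, 11 of 455 were empty in all libraries at the ends (2.42%) and 206 of 7031 in the rest (2.93%). Their log2 difference was still -0.088, and its cause was not tested.

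The 12 protein-coding windows with the highest floor over the 9 libraries lay at 8 ends, 5 of them at 17q. ZNF7 at 8q, which encodes a zinc finger protein, had 121, 138 and 175 CPM in BioRep1, BioRep2 and BioRep3 (144 ± 27.9). Its 3 BioRep3 libraries lay above all 6 others. CHKB at 22q, a choline kinase gene, had 129, 140 and 148 CPM. P4HB had 115, 141 and 148 CPM, and the 17q genes LRRC45, RAB40B and ARL16 averaged 134 ± 21.6, 133 ± 14 and 124 ± 12.5 CPM. FASN, the fatty acid synthase gene at 17q, had closer replicate means, with 122, 119 and 122 CPM (121 ± 1.89). Its single libraries ran from 111 to 137 CPM. LSS at 21q had 117, 115 and 111 CPM (114 ± 3.36), with single libraries from 97.6 to 127 CPM. INPP5A, an inositol phosphatase gene, NCAPG2, a condensin subunit gene, MICALL2 and TARS3, of the tRNA synthetase family, averaged 131 ± 5.77, 123 ± 10.8, 122 ± 13.3 and 119 ± 18.2 CPM.

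PCSK4, a proprotein convertase gene, and DAZAP1 at 19p had 106 ± 13.0 and 92.0 ± 6.18 CPM. PYCR3, of proline synthesis, came after ZNF7 at 8q and had 102 ± 11.3 CPM, and RPS2, a ribosomal protein gene, and CRAMP1 at 16p had 98.0 ± 3.53 and 97.5 ± 3.94 CPM. MVD, of the mevalonate pathway, and GALNS, a lysosomal sulfatase gene, at 16q had 98.5 ± 15.5 and 76.6 ± 6.05 CPM. TMEM141 at 9q has a pair of overlapping windows, with 92.5 ± 5.11 and 87.9 ± 4.19 CPM from largely the same reads.

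Some windows held a moderate level with no peak. Among windows named for protein-coding genes, the highest at the ends was MTERF4 at 2q, a mitochondrial ribosome factor gene, with 40.2, 35.9 and 37.3 CPM. SFSWAP at 12q, a splicing factor gene, came next with 38.5, 39.2 and 33.7 CPM. CNN2 at 19p averaged 35.0 ± 3.26 CPM and ZNF274 at 19q 34.9 ± 3.68 CPM. These lie below 46.2 CPM, the level under which 10% of the consensus-peak windows at the ends fell.

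**Figure D4:**
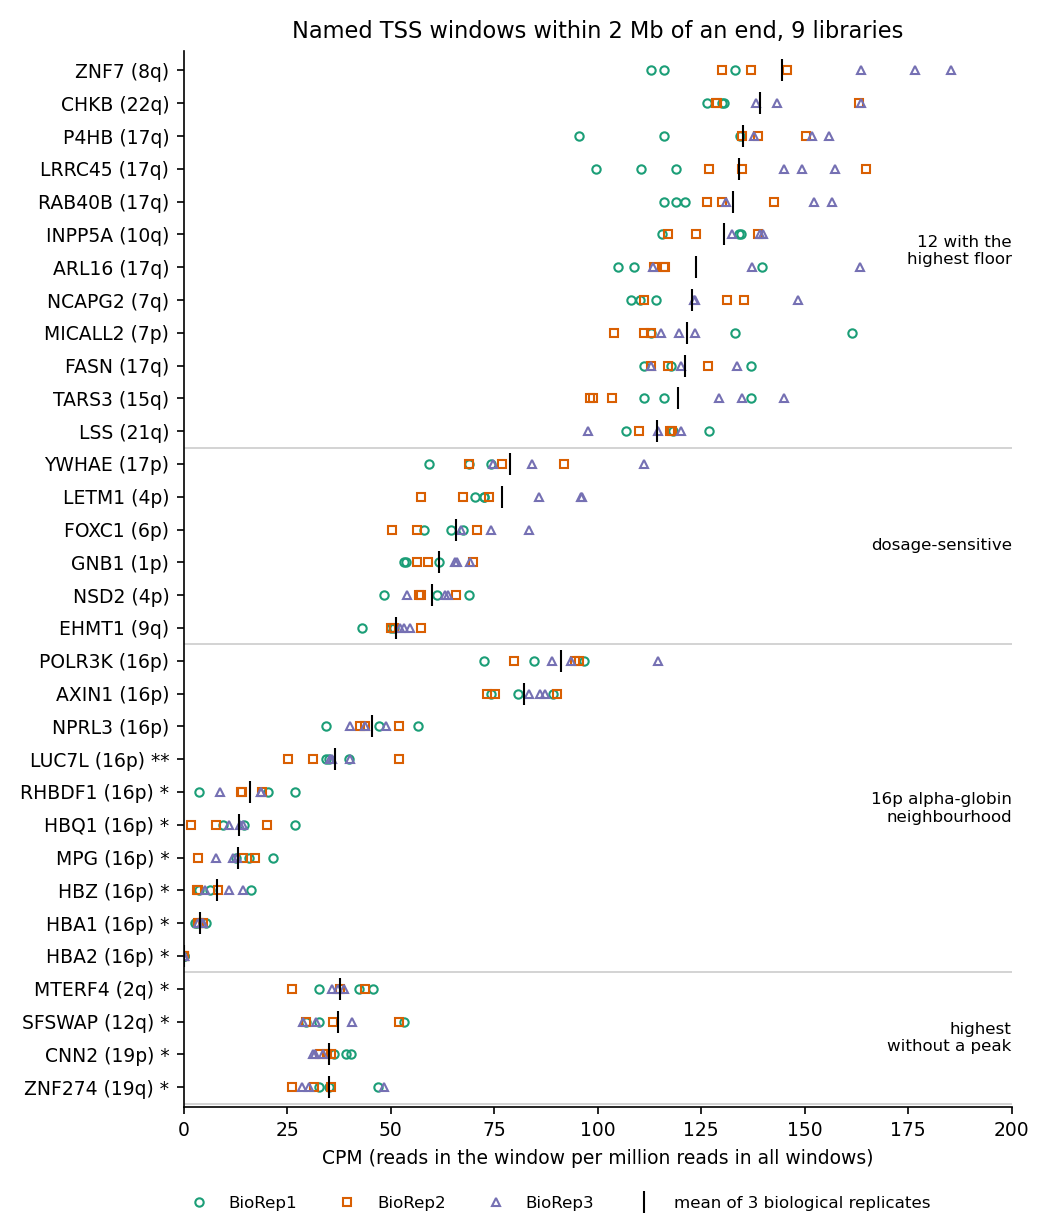
CPM in each of the 9 libraries (symbols by biological replicate) and the mean of 3 replicates (tick) for named TSS windows within 2 Mb of an end; 1 asterisk marks windows without a peak in any list and 2 asterisks a window with a peak in 1 list. The upper 12 windows average 114 to 144 CPM and the dosage-sensitive genes 51.3 to 78.9 CPM. The 4 highest protein-coding windows without a peak average 34.9 to 37.8 CPM.

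Lists of genes known from chromosome ends are described by their counts, without a test between them. Among 9 dosage-sensitive genes of terminal deletions, 6 had a window at the ends and 6 of 6 had a consensus peak. The share was 25.8% over all protein-coding windows and 30.5% over those at the ends. The list was chosen with earlier results of these data known, so the count is a description and no sign of enrichment. YWHAE, which encodes a signalling adaptor, had 67.4, 79.2 and 90.0 CPM in BioRep1, BioRep2 and BioRep3, and LETM1, a mitochondrial membrane protein gene, had 71.8, 66.1 and 92.7 CPM. FOXC1, a forkhead factor gene, averaged 65.8 ± 8.10 CPM and GNB1, a G protein subunit gene, 61.6 ± 5.33 CPM. The histone methyltransferase genes NSD2 and EHMT1 had 59.9 ± 0.449 and 51.3 ± 2.94 CPM. SHANK3, CRK and ZMYND11 had no window named for them at the ends.

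At 16p, the alpha-globin cluster lies among widely expressed genes. Of 12 listed genes, 10 had a window, 3 had a consensus peak and 1 a peak in a single list. This share is near the 25.8% of all protein-coding windows and is no result about the list. POLR3K had 84.6, 90.0 and 99.0 CPM, AXIN1, which encodes a scaffold of the Wnt pathway, 81.4, 79.6 and 85.5 CPM, and NPRL3, whose introns hold the alpha-globin enhancers, 46.0, 46.1 and 44.2 CPM. LUC7L, a splicing factor gene, had a peak in 1 list and 36.6 ± 0.537 CPM. The globin genes themselves had no peak. HBQ1 had 13.2 ± 3.53 CPM, HBZ 7.91 ± 2.66 CPM and HBA1 3.92 ± 0.184 CPM, and HBA2 had no read in any library. HBA1 and HBA2 are near-identical copies, so their counts are uncertain. The windows of RHBDF1 and MPG had 16.0 ± 0.881 and 13.0 ± 3.13 CPM and no peak. HBM and SNRNP25 had no window named for them.

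Families duplicated between chromosome ends had no peak. WASH, DDX11L, FAM138, OR4F, TUBB8, DUX4, FRG1 and FRG2 genes and pseudogenes had 56 windows at the ends and 0 with a peak in any list. Many are pseudogenes, a class in which 1.10% of windows at the ends and 0.544% in the rest had a peak in all 3 lists. A count of 0 among those is near this share. Others, among them FRG1, FRG2, DUX4 and OR4F5, are protein-coding, a class in which 30.5% of windows at the ends had a consensus peak. The promoters of OR4F5, OR4F6, OR4F15, OR4F17, FRG2 and FRG2B had 34.3 to 49.3% GC. Below 50% GC, 0 of 112 promoters at the ends had a region, so a count of 0 there is that of the class. The promoters of FRG1 and DUX4 had 66.7 and 73.3% GC. The 30.5% is therefore no measure for all of these windows, and the cause of the 0 was not tested. Over all 56 windows the median level was 0 CPM. FRG1 at 4q had the highest, 32.0 ± 2.21 CPM, followed by DUX4L9 at 4q with 13.5 ± 2.34 CPM. DUX4 itself and the repeats DUX4L1 to DUX4L8 had no read in any library. Reads from near-identical copies cannot be assigned to 1 of them, and how the authors treated such reads is not given in the sources used here. A level near 0 in these windows is therefore uncertain. Of the telomere-linked genes, 2 had a window at the ends and 0 had a peak, a number too small to set against the 25.8% of all protein-coding windows. TERT, which encodes the catalytic subunit of telomerase, averaged 14.2 ± 0.314 CPM, and RTEL1 had 27.3, 20.5 and 20.5 CPM. ISG15 had no window named for it.

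Promoter sequence differed between the ends and the rest. RefSeq promoters of protein-coding genes numbered 1272 at the ends and 19862 in the rest, and stood for 69.9 and 79.8% of the protein-coding RefSeq genes there. Since under 80% had a sequence, a check of the densities against GC content is void, and the values describe the promoters in the table. Their median GC content was 69.0% at the ends and 62.0% in the rest. The motif was present in 493 promoters at the ends (38.8%, 36.1 to 41.5%) and 5927 in the rest (29.8%, 29.2 to 30.5%). A consensus region overlapped 360 at the ends (28.3%, 25.9 to 30.8%) and 4750 in the rest (23.9%, 23.3 to 24.5%).

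Among promoters with the motif, a region was present in 31.8% at the ends and 31.4% in the rest, and among those without it in 26.1 and 20.7%. By list, the share of promoters with the motif that had a peak was lower at the ends, with differences of -0.497, -3.71 and -0.879 points in BioRep1, BioRep2 and BioRep3, so the order of the consensus shares is not that of the lists. Those without the motif differed by 5.26, 4.91 and 3.91 points. With 1 promoter per gene the consensus shares were 32.7 and 34.8% with the motif and 28.6 and 23.7% without it. Of the 360 promoters with a region at the ends, 157 held the motif (43.6%), against 39.1% in the rest. In 132 of those 157 a motif overlapped the region by at least 1 base (84.1%), against 86.5% in the rest. The remaining 203 of the 360 had a region and no motif, as at P4HB and RAB40B above.

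Within classes of GC content the order changed. Between 50 and 60% GC a region was present in 4 of 159 promoters at the ends (2.52%, 0.983 to 6.29%), against 568 of 4472 in the rest (12.7%, 11.8 to 13.7%). Between 60 and 70% it was present in 98 of 403 (24.3%, 20.4 to 28.7%), against 2217 of 6408 (34.6%, 33.4 to 35.8%). Between 70 and 80% the ends were higher, with 225 of 488 (46.1%, 41.7 to 50.5%) against 1763 of 4336 (40.7%, 39.2 to 42.1%). At 80% and above, the shares were 30.0% of 110 and 28.9% of 626. These differences had the same sign in 3 of 3 lists for the 3 classes between 50 and 80%: in BioRep1, BioRep2 and BioRep3 they were -10.5, -12.6 and -15.0 points, then -10.3, -16.4 and -17.8 points, then 3.24, 4.15 and 6.64 points. Below 50% GC, 0 of 112 promoters at the ends had a region, against 21 of 4020 in the rest (0.522%). Promoters of 1 gene can overlap, and these classes were chosen after the data had been seen.

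**Figure D5:**
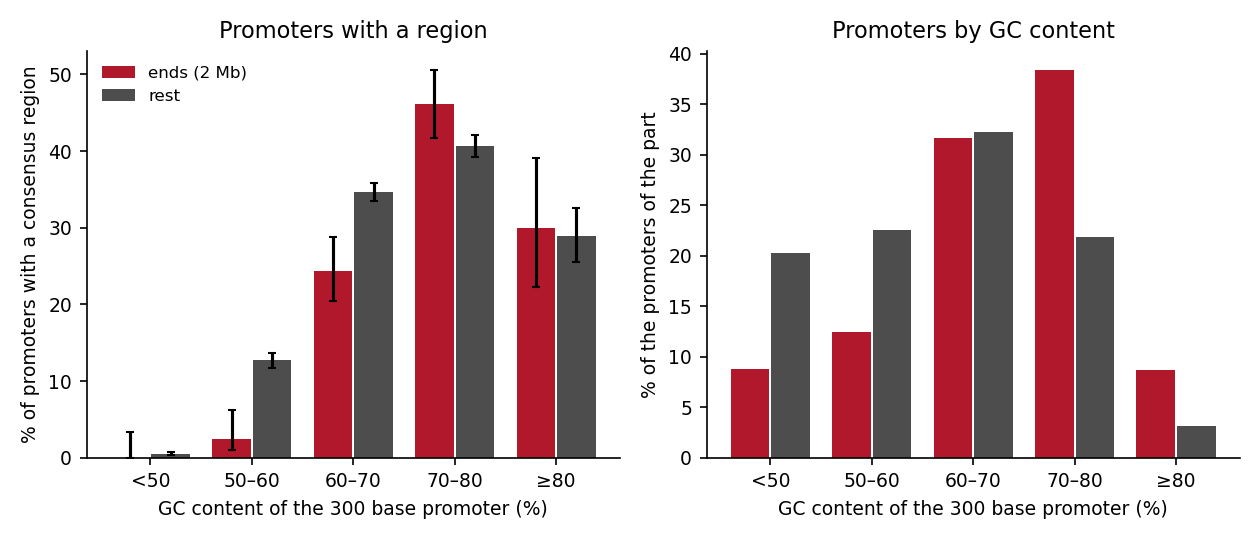
Percentage of RefSeq promoters with a consensus region, with 95% Wilson intervals (left), and percentage of all promoters of the ends or the rest (right), by GC content of the 300 base promoter. The ends lie below the rest between 50 and 70% GC (2.52 against 12.7% and 24.3 against 34.6%) and above it between 70 and 80% (46.1 against 40.7%), and hold more promoters of 70% GC and above.

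The biological replicates were compared window by window. Technical libraries of 1 replicate differed by no more than sampling noise (chi-square per degree of freedom 0.907 to 1.02 over the windows) and were counted as 1 value. Between BioRep1 and the other biological replicates this value was 1.03 to 1.21. Between BioRep2 and BioRep3 it was 0.951 to 1.01, within the range of the technical libraries. Of 1173 tested windows at the ends, 0 differed between the 3 biological replicates in edgeR's quasi-likelihood test, and the smallest Benjamini-Hochberg adjusted p there was 0.147. Over all 17499 tested windows the count was also 0 (0% called). At an unadjusted p under 0.05 there were 95 windows at the ends (8.10%), against 7.88% of all tested. The DESeq2 likelihood ratio test also called 0. It had 27 windows at the ends under an unadjusted p of 0.05 (2.30%), against 1.91% of all tested. The labels do not say whether the biological replicates were separate cultures, and these p-values measure the spread between technical libraries.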

How the data were processed

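For each ChIP library the authors deposited raw, unscaled read counts in TSS windows (400 bp, GENCODE release 28, hg38), and they deposited 1 peak list per biological replicate with chromosome, start and end and no score. Tools listed in the submitters' processing notes are bedtools, BWA, cutadapt, MACS2 and Picard. Thresholds, the joining of technical libraries and the use of duplicates: not given in the sources used here. CPM uses the sum over windows as its total, which is not the library's full depth, and is averaged over 3 technical libraries and given as mean ± SD over 3 biological replicates.

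Windows were named by position: the RefSeq gene (GRCh38.p14) with its 5′ end within 200 bp of the TSS and on the same strand where known, protein-coding genes first. This named 36608 of 58381 windows, and 1891 of 3098 at the ends. At shared promoters the name can be a neighbour's. Consensus regions merge peaks that overlap peaks of both other lists by 1 bp or more. Distances run from the ends of the hg38 sequences, telomere gaps included.

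Differences per list were tested with an exact sign-flip permutation test over 3 replicates. Counts were compared between replicates with edgeR's quasi-likelihood test (TMM, adjusted p under 0.05) and, as an alternative, DESeq2. The edgeR test was tried on simulated counts. The interval functions were tried on toy intervals with known answers, save for a peak across the 2 Mb limit, which had no fixed answer. Software was R 4.3.3 (DESeq2 1.42.0, edgeR 4.0.16) and Python 3.11.15 (matplotlib 3.10.9, scipy 1.17.1, pandas 2.3.3, numpy 2.4.6).

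Named windows and regions followed a rule. It took the 12 protein-coding windows with a consensus peak and the highest lowest-of-9 CPM. To these it added the 2 leading ones at each of the 6 ends with most regions. It also took 5 regions each of 3 kinds (longest, farthest from a TSS, nearest an end). Last came the 4 protein-coding windows without a peak that had the highest mean CPM, and the members of 4 gene lists. The members and lists were chosen with earlier results of these data known. Ends of 1 and 5 Mb, other peak sets, overlaps, scalings and left-out libraries, replicates and chromosomes were tried.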

Additional observations from a re-analysis of the deposited data

Results flagged for a closer look

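Peaks also appeared at ends that the comparisons do not use. On the short arms of the 5 acrocentric chromosomes, which carry ribosomal DNA and satellite repeats, the BioRep1, BioRep2 and BioRep3 lists held 21, 21 and 20 peaks, merged into 16 consensus regions. Within 2 Mb of the long-arm end of chromosome X they held 17, 21 and 19 peaks and 13 consensus regions, of 127 on the whole chromosome. These are counts seen in the lists, with no test. The short-arm end of chromosome X, where X and Y share sequence, had 0 peaks in all 3 lists. No input was analysed here, and what these counts come from was not tested.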

How the results depend on the processing

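The ratio per Mb was 2.23 for all peaks over the length of 100 kb bins with a TSS window. It was 2.24 with ends of 5 Mb and 2.37 without the ends 19p, 8q and 17q (added after seeing the data). Since these 3 ends hold the most peaks and the rest was kept whole, a lower ratio per Mb follows from the choice. The ratio per window was 1.30 with ends of 1 Mb and 1.21 without those 3 ends. The difference in protein-coding windows with a peak was 3.24 points with ends of 1 Mb, 3.83 with ends of 5 Mb and 1.68 without the 3 ends. The share over 5 kb from a TSS differed by -0.755 points, a turn from that over 1 kb. The log2 difference of peak-free windows turned to 0.034 with ends of 5 Mb, to 0.15 over windows with a mean of 5 CPM or more and to 0.029 without windows empty in all 9 libraries; with a pseudocount of 0.1 CPM it was -0.19. Among promoters with the motif the consensus difference turned to -2.03 points with 1 promoter per gene; in the single lists it was already negative, with a mean of -1.70 points. The share over 1 kb from a TSS differed by 1.28 points with ends of 1 Mb. The causes were not tested. The other alternatives, each run for the results it applies to, kept the direction of the mean. For consensus-peak windows 2 of 3 replicates kept it with ends of 1 Mb, over protein-coding windows, without the BioRep2 replicate 1 library and without the 3 ends. Leaving out 1 biological replicate gave 2.83 to 2.92 per Mb, 1.37 to 1.41 per window, 4.42 to 4.86 points, 1.80 to 3.53 points of shared peaks, 11 to 15 bp and 2.61 to 3.47 points over 1 kb from a TSS; leaving out 1 replicate or library gave log2 differences of 0.024 to 0.051 for consensus-peak windows and -0.079 to -0.052 for peak-free ones.

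Windows called different between replicates numbered 25 of 56196 tested (3 of 2956 at the ends) with no filter on low counts. There were 0 with the technical number as a replicate block, which changed no call. With 1 library left out there were 0 to 1, a single window without the BioRep1 replicate 1 or the BioRep3 replicate 2 library. The technical numbers do not pair the libraries: correlations of same-numbered libraries were between -0.016 and 0.027. Levels of the 43 named windows over 10 CPM moved between 0.872 and 1.14 times under other totals or with 1 library left out. The depth of 372030 to 846114 reads in windows limits single windows: at the ends, 6.58 to 11.1% of windows were empty in a library.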
